A study of Mus musculus with 10 samples.

Results

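Retinoid metabolism and retinoic acid signaling were described in the murine melanoma line WT31 and its liver-passaged subline WT31_P5IV by 9 genes. These were the retinol saturase Retsat, the retinal-oxidising enzymes Aldh1a1 and Aldh1a3, the cellular retinoic acid binding proteins Crabp1 and Crabp2, the retinoic acid receptors Rara, Rarb and Rarg, and the retinoid X receptor Rxra. They were 9 of the 55385 gene identifiers in the deposited values and were chosen by name, with results of the same comparison known. Their own differences between the lines are therefore given as a description, p-values are printed only for other genes, and the number of the 9 called in the fit over all genes is not read as a result. WT31 was derived from mice carrying Tyr::NrasQ61K/° on an INK4a-/- background, and all libraries of both groups share this genotype. WT31_P5IV is a subline obtained by 5 rounds of passaging WT31 through the liver after intravenous injection, so every library of that group stems from the same selection. RNA came from untreated, sub-confluent cells grown in RPMI medium with fetal calf serum and not from metastases. There were 5 libraries per group. The titles call them biological replicates without saying whether they were separate cultures, so errors cover the spread between these libraries, which may in part be technical. The vitamin A content of the serum is not given in the sources used here.

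Retinol, the circulating form of vitamin A, is oxidised reversibly to retinal by retinol dehydrogenases, and retinal is oxidised irreversibly to retinoic acid by retinaldehyde dehydrogenases. Retinoic acid is carried in the cell by small binding proteins, activates receptors that bind DNA as pairs of an RAR and an RXR, and is broken down by Cyp26 enzymes. RXR also pairs with other nuclear receptors. Retinol that is not oxidised can be stored as retinyl esters, which in the liver is a known task of stellate cells, or be reduced by Retsat to a dihydroretinol. Retinoic acid is known to slow growth and promote differentiation of many cultured melanoma cells.

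The libraries held 24255389 to 25750639 estimated counts, and 3 counts corresponded to 0.114 to 0.129 CPM, the counts scaled to a common library total. The melanocyte markers Mlana, Pmel, Tyr, Tyrp1, Dct, Mitf and Sox10 were all detected, with summed levels of 17046 to 18443 CPM in WT31 and 22228 to 25730 CPM in WT31_P5IV. The difference in the sum came mainly from Dct and Pmel, which were higher in all WT31_P5IV libraries, as was Tyr, whereas Tyrp1 was lower there (1450 to 1621 CPM, in comparison to 2980 to 3103 CPM), and Mlana, Mitf and Sox10 overlapped. Of the hepatocyte markers, Alb, Apoa1 and Apob were at 0 in all WT31 libraries, and Alb did not exceed 9 counts in any WT31_P5IV library. The 5 hepatocyte markers together reached 0.303 to 0.588 CPM in WT31 and 0.442 to 1.3 CPM in WT31_P5IV. The 5 endothelial markers together stayed between 0.119 and 0.416 CPM in all libraries, with Cdh5 and Lyve1 at 0. The summed levels of the 7 stellate cell and fibroblast markers were 1.97 to 2.63 CPM in WT31 and 3.20 to 3.66 CPM in WT31_P5IV. For the 5 macrophage and leukocyte markers they were 0.757 to 2.18 CPM and 3.38 to 5.00 CPM, nearly all of it Cd68, while Ptprc did not exceed 2 counts, Adgre1 did not exceed 1 count and Clec4f was at 0. The part of these cells in the results below was not tested.

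Of the 9 genes, Retsat had a clearly higher level in WT31_P5IV, and Aldh1a1 and Rarb had the most reduced levels. Rarg and Rxra were slightly lower, Rara and Aldh1a3 overlapped between the lines, and Crabp1 and Crabp2 were at or close to the limit of detection. A total of 7 of the 9 genes had enough counts to enter the comparison of all 13620 tested genes with edgeR's quasi-likelihood test. There, 5 were called at an adjusted p under 0.05, beside 68.5% of all tested genes, with 1 higher (34.6% of all genes) and 4 lower (33.9%). An absolute log2 fold change of at least 1 was additionally reached by 2 genes, Retsat and Aldh1a1, beside 9.19% of all genes. In CPM the lines were separated without overlap in 5 of these 7 genes and in 54.1% of all tested genes. Because the genes were selected on this contrast, nothing is read from these counts. The median log2 fold change was -0.09 over the 7 genes and 0.01 over all tested genes. In bulk RNA, a lower level can mean fewer cells that express a gene or less RNA per cell, and these cannot be told apart here.

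**Figure D1:**
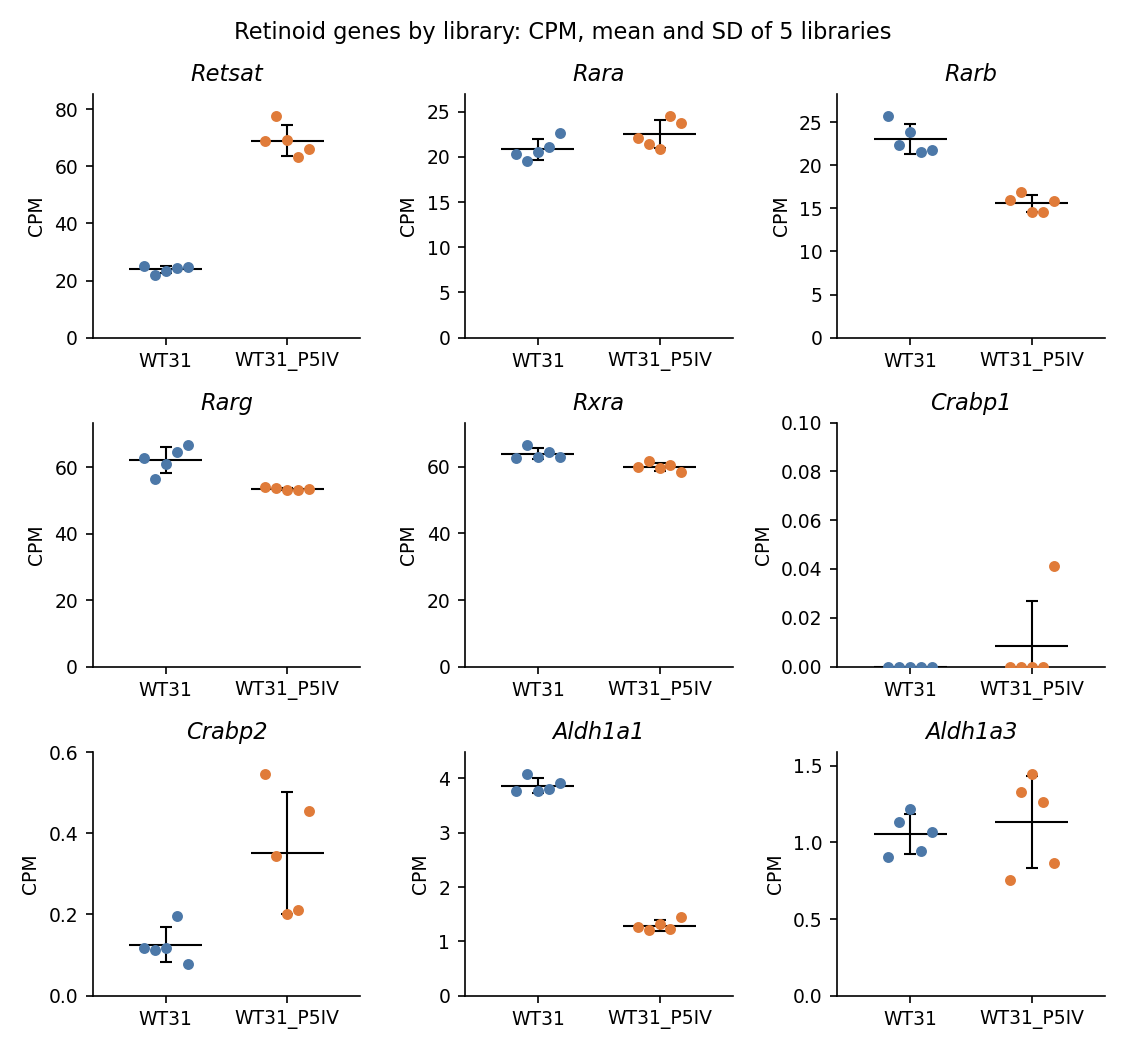
Level of each of the 9 genes in every library, in CPM on a linear axis from 0, with WT31 in blue and WT31_P5IV in orange; each point is 1 library, the long line is the mean and the bars are the SD of 5 libraries. The Retsat points lie between 22 and 25.0 CPM in WT31 and between 63.1 and 77.8 CPM in WT31_P5IV, whereas the points of Rara and Aldh1a3 overlap between the lines.

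Retsat (chromosome 6, 72598475 to 72608425, plus strand, GRCm38) encodes the enzyme that saturates all-trans-retinol. Its level was 25.0, 22, 23.3, 24.5 and 24.8 CPM in the 5 WT31 libraries and 69.0, 77.8, 69.1, 63.1 and 66.1 CPM in the 5 WT31_P5IV libraries. Every WT31_P5IV library lay far above every WT31 library, and the spread within each line was small beside the gap. The means were 23.9 ± 1.27 CPM and 69.0 ± 5.47 CPM (SD, n = 5 each), 2.88-fold higher in WT31_P5IV with a log2 fold change of 1.53 (SE 0.06). These values rested on 581 to 639 counts per WT31 library and 1499 to 1813 counts per WT31_P5IV library. Retsat is also abundant in hepatocytes, whose 5 markers together did not exceed 1.3 CPM in any library. Of the 31-base sequence words of Retsat transcripts, 16.3% also occur on the opposite strand in transcripts of other genes. They occur most often in Gm45053, an unclassified transcript inside the gene. Gm45053 had 4 to 16 counts in WT31 and 12 to 26 in WT31_P5IV, far fewer than Retsat, and the strand setting of the counting is not given in the sources used here.

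The sequence before the Retsat start site in RefSeq (GRCm38.p6, plus strand, chr6:72598352-72598601) is shown because the annotated start of the neighbouring gene Elmod3, on the opposite strand, lies within it, so that both genes are read outward from the same stretch.
Retsat: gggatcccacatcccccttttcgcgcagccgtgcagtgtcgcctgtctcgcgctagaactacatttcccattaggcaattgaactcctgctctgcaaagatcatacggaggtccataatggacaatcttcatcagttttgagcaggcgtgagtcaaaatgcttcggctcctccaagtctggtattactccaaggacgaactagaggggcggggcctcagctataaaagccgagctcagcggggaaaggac

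Genes beside Retsat were compared to see how far the difference extended along the chromosome. Elmod3, whose start lies 0.062 kb from the annotated start of Retsat, encodes an ELMO domain protein. Its mean was 16.3 ± 1.1 CPM in the parental line in comparison to 20.0 ± 1.13 CPM in the subline (SD, n = 5 each), a log2 fold change of 0.30 (SE 0.06, edgeR adjusted p = 0.000403). The gene that shares its start region with Retsat thus rose far less than the log2 fold change of 1.53 of Retsat itself. On the other side, Tgoln1, a trans-Golgi network protein gene, rose by 0.59 (SE 0.05, edgeR adjusted p = 3.11e-08), and further out Tcf7l1 by 0.29 (SE 0.06, edgeR adjusted p = 0.000703), although its groups overlapped in CPM. The actin-capping protein gene Capg, 54.1 kb away, rose from 0.344 ± 0.0730 CPM to 15.6 ± 1.12 CPM (log2 fold change 5.50, SE 0.12, edgeR adjusted p = 4.86e-14). Particl, a long non-coding RNA, rose by 0.72 (SE 0.13, edgeR adjusted p = 0.000236), and Gm45053 inside Retsat had a log2 fold change of 0.61 (SE 0.32, edgeR adjusted p = 0.106). All 6 neighbours had positive log2 fold changes, and 5 were called as higher, beside 34.6% of all tested genes, with sizes that differed widely between adjacent genes.

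**Figure D2:**
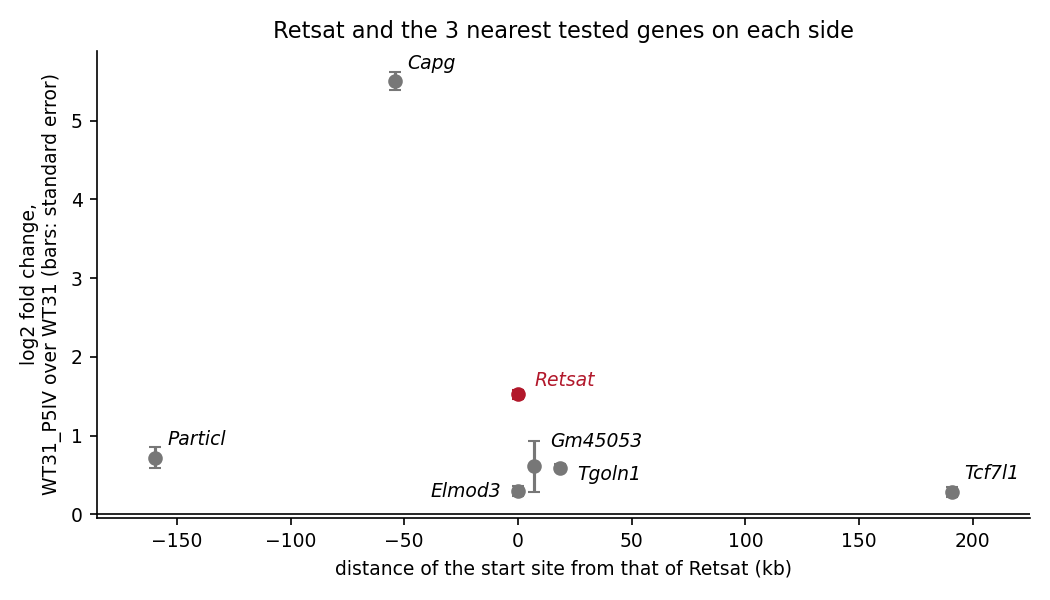
Log2 fold change of WT31_P5IV over WT31, with bars of 1 standard error from edgeR, for Retsat (red) and the 3 nearest tested genes on each side (grey), against the distance of each start site from that of Retsat in kb. Capg at 5.50 stands above Retsat at 1.53, and the adjacent Elmod3 is at 0.30.

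The genes whose pattern over the 10 libraries was most like that of Retsat included the complement component gene C2 and the oxoglutarate dehydrogenase-like gene Ogdhl. Likeness was measured as the root mean square difference of centred log2(CPM + 0.1), which was 0.0373 for C2 and 0.0753 for Ogdhl. Their log2 fold changes were 1.54 (SE 0.05) and 1.5 (SE 0.04), respectively. Since the difference between the lines dominates this measure, it mainly finds genes with the same fold change.

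Aldh1a1 (chromosome 19, 20492715 to 20643465, plus strand) encodes a cytosolic enzyme that oxidises retinal to retinoic acid as well as other aldehydes. Its level was 3.76, 4.09, 3.77, 3.81 and 3.92 CPM in WT31 and 1.26, 1.20, 1.33, 1.22 and 1.45 CPM in WT31_P5IV. The groups were well separated, and the libraries of each line differed little. The means of 3.87 ± 0.138 CPM and 1.29 ± 0.0988 CPM (SD, n = 5 each) were 2.99-fold lower in WT31_P5IV, with a log2 fold change of -1.58 (SE 0.10). The gene was low in both lines, with 96 to 108 counts per WT31 library and 28 to 35 counts per WT31_P5IV library.

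Aldh1a3 (chromosome 7, 66390890 to 66427517, minus strand), another retinaldehyde dehydrogenase, had 0.901, 1.14, 1.22, 0.943 and 1.07 CPM in WT31 and 0.757, 1.33, 1.45, 1.26 and 0.867 CPM in WT31_P5IV. The WT31_P5IV libraries lay on both sides of the WT31 libraries. The log2 fold change was 0.11 (SE 0.20), and its sign turned on the TPM scale with the smaller pseudocount and without replicate 3 of WT31_P5IV. Aldh1a2 had at most 1 count in any library.

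Aldh1a7, a rodent relative of Aldh1a1 located beside it, was compared because the transcripts of both are alike. It was at 6.19, 5.11, 6.04, 5.93 and 6.14 CPM in WT31 and at 0.925, 0.815, 0.523, 0.379 and 0.661 CPM in WT31_P5IV. The reduction was larger than that of Aldh1a1, with means of 5.88 ± 0.443 CPM and 0.661 ± 0.219 CPM (SD, n = 5 each) and a log2 fold change of -3.16 (SE 0.16, edgeR adjusted p = 3.54e-10). Of the 31-base words, 5.70% of those of Aldh1a1 and 13.8% of those of Aldh1a7 are shared between the pair, so reads in these stretches could have been assigned to either gene. Anxa1, the nearest tested gene on the other side of Aldh1a1, fell by 0.49 on the log2 scale (SE 0.04, edgeR adjusted p = 2.00e-08). Per transcript length, in the TPM unit that scales for length and total, Aldh1a1, Aldh1a2, Aldh1a3 and Aldh1a7 together had a level of 8.67 ± 0.212 in WT31 and 2.22 ± 0.123 in WT31_P5IV. Of this sum, Aldh1a7 contributed 54.1% in WT31 and 21.1% in WT31_P5IV, Aldh1a1 36.5% and 41.2%, and Aldh1a3 9.47% and 37.4%. Whether Aldh1a7 acts on retinal in these cells was not tested, so the sum is not a measure of retinoic acid formation.

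Crabp1 and Crabp2 encode cytosolic carriers of retinoic acid, of which Crabp2 is known to deliver it to RAR. Crabp1 (chromosome 9, 54764748 to 54773110, plus strand) had 0 counts in 9 libraries and 1 count in replicate 5 of WT31_P5IV. At this depth it was not detectable in either line. Crabp2 (chromosome 3, 87948666 to 87953376, plus strand) had 3, 3, 3, 5 and 2 counts in WT31 and 13, 8, 5, 5 and 11 counts in WT31_P5IV. The lines met at a count of 5, and scaled for library size the highest WT31 library was at 0.197 CPM and the lowest WT31_P5IV library at 0.201 CPM. Summed over the libraries there were 16 and 42 counts, a ratio of 2.8 between WT31_P5IV and WT31 with an exact 95% counting interval of 1.54 to 5.34, which covers counting error only.

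Fabp5, a fatty acid binding protein that is also known to bind retinoic acid, was far more abundant than either. It was at 141, 132, 129, 139 and 148 CPM in WT31 and at 63.2, 63.1, 61.9, 67.0 and 69.8 CPM in WT31_P5IV, without overlap. This was a fall by 1.09 on the log2 scale (SE 0.05, edgeR adjusted p = 7.68e-11). In TPM, Fabp5 made up 99.9% of the summed level of Crabp1, Crabp2 and Fabp5 in WT31 and 99.4% in WT31_P5IV, while the sum went from 258 ± 7.91 to 105 ± 7.2 TPM (SD, n = 5 each). Pseudogenes and other genes on the same strand share 9.21% of the 31-base words of Fabp5.

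Among the retinoic acid receptors, Rarb differed most between the lines. Rarb (chromosome 14, 16430839 to 16819156, minus strand) is itself a known target of retinoic acid, through a response element in its promoter. It was at 25.7, 22.4, 23.9, 21.6 and 21.8 CPM in WT31 and at 15.9, 16.9, 14.6, 14.6 and 15.9 CPM in WT31_P5IV. All WT31_P5IV libraries lay below all WT31 libraries. The means were 23.1 ± 1.74 CPM and 15.6 ± 1.01 CPM (SD, n = 5 each), 1.48-fold lower in WT31_P5IV, with a log2 fold change of -0.57 (SE 0.06) and 346 to 657 counts per library. The value of Rarb is uncertain because the gene overlaps Top2b, a topoisomerase gene on the opposite strand. Of the 31-base words of Rarb, 35.7% also occur on the opposite strand in transcripts of other genes, most often Top2b. Top2b had 4050 to 7402 counts per library. Top2b itself fell by 0.41 (SE 0.06, edgeR adjusted p = 3.19e-05), and its part in the value of Rarb was not tested. Nr1d2, the nearest tested gene on the other side, starts 1420 kb from the annotated start of Rarb and fell by 0.34 (SE 0.05, edgeR adjusted p = 1.04e-05).

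Rarg (chromosome 15, 102234938 to 102257517, minus strand) is the receptor best known from skin. It was at 62.7, 56.4, 60.9, 64.5 and 66.7 CPM in WT31 and at 54.0, 53.6, 53.1, 53.2 and 53.3 CPM in WT31_P5IV. The WT31_P5IV libraries were nearly equal and all lay below the WT31 libraries, of which replicate 2 came closest. The log2 fold change was -0.22 (SE 0.04). With an offset for transcript length it was -0.13.

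Rara (chromosome 11, 98927818 to 98974942, plus strand) is the most widely expressed receptor of this family in mouse tissues. It was at 20.3, 19.6, 20.6, 21.1 and 22.7 CPM in WT31 and at 22.1, 21.4, 20.8, 24.6 and 23.8 CPM in WT31_P5IV. The groups overlapped. The log2 fold change was 0.11 (SE 0.06), and on the TPM scale, where the median of all genes was -0.11 or -0.14 by pseudocount in comparison to 0.01 in CPM, it had the opposite sign.

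Rxra (chromosome 2, 27676440 to 27762957, plus strand) encodes the partner with which RARs bind DNA. It was at 62.7, 66.6, 62.9, 64.3 and 63.0 CPM in WT31 and at 59.9, 61.6, 59.8, 60.6 and 58.4 CPM in WT31_P5IV. The groups did not overlap but lay close to each other, with a log2 fold change of -0.09 (SE 0.03). It was -0.06 with upper-quartile scaling and -0.27 on the TPM scale with the smaller pseudocount. Rxrb, the other retinoid X receptor found in these cells, was at 31.9, 30.3, 28.6, 33.1 and 35 CPM in WT31 and at 54.1, 48.3, 53.1, 55.1 and 53.1 CPM in WT31_P5IV. It rose by 0.73 (SE 0.06, edgeR adjusted p = 2.25e-08), without overlap between the lines, and Rxrg had at most 2 counts in any library.

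**Figure D3:**
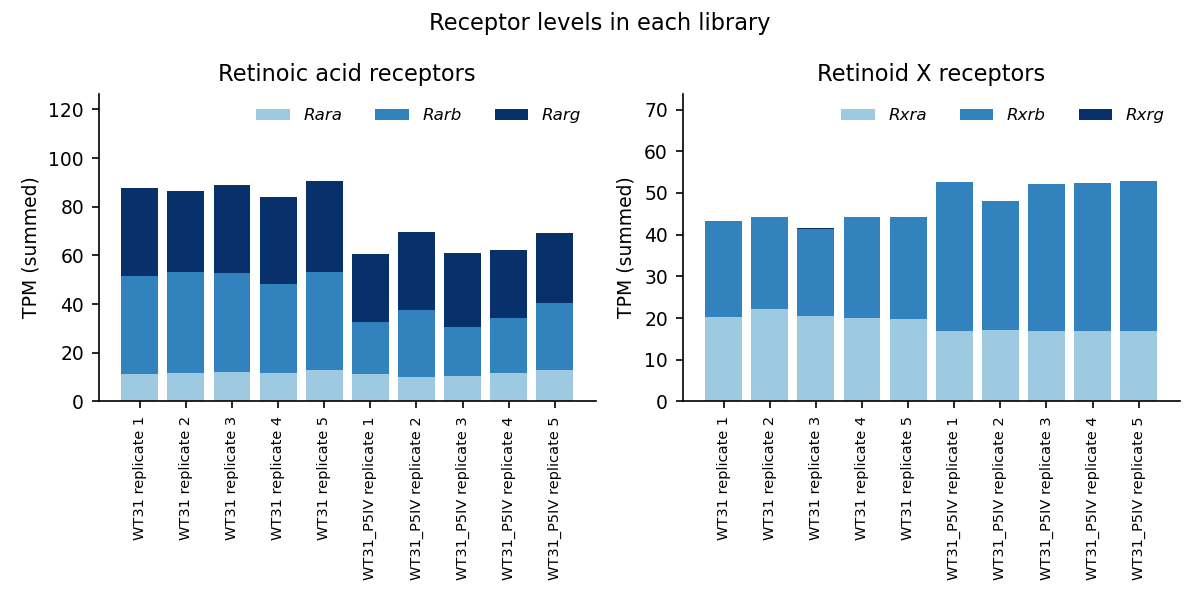
Stacked TPM of the retinoic acid receptors (left) and the retinoid X receptors (right) in each of the 10 libraries, on linear axes from 0, with a shade of blue for each gene. The summed RAR level is 84.1 to 90.4 TPM in WT31 and 60.7 to 69.8 TPM in WT31_P5IV, with the value of Rarb uncertain for its overlap with Top2b, and Rxrb takes a larger share of the RXR level in every WT31_P5IV library.

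Levels of different genes were compared per transcript length. The 3 RARs together had 87.5 ± 2.39 TPM in WT31 and 64.6 ± 4.54 TPM in WT31_P5IV (SD, n = 5 each), and the groups did not overlap. Rarb contributed 45.6% of this sum in WT31 and 36.7% in WT31_P5IV, Rarg 40.8% and 45.8%, and Rara 13.6% and 17.5%. The RXR sum was 43.5 ± 1.20 TPM in WT31 and 51.6 ± 1.97 TPM in WT31_P5IV. Of it, Rxra had 47.2% in WT31 and 32.9% in WT31_P5IV, and Rxrb 52.7% and 67.1%. Most of the difference in the RAR sum was that of Rarb, whose value is uncertain for the overlap with Top2b. Without Rarb the RAR sum was 47.6 ± 1.82 TPM in WT31, in comparison to 40.8 ± 1.27 TPM in WT31_P5IV (SD, n = 5 each), without overlap. On the TPM scale the median log2 fold change of all tested genes was -0.14 or -0.11 by pseudocount, in comparison to 0.01 in CPM. In CPM, Rara had a log2 fold change of 0.11 and Rarg of -0.22. The size of this gap therefore depends on the scale used. Of the RXR genes, Rxrb rose.

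In WT31 the order of TPM levels began with Rarb (39.9 ± 1.88) and Rarg (35.7 ± 1.38), whose ranges over the libraries overlapped. Retsat (20.6 ± 1.1) and Rxra (20.5 ± 0.923) followed, also with overlapping ranges, then Rara (11.9 ± 0.71), Aldh1a1 (3.16 ± 0.139), Aldh1a3 (0.823 ± 0.164) and Crabp2 (0.253 ± 0.0847). In WT31_P5IV the order began with Retsat (46.9 ± 4.51), followed by Rarg (29.5 ± 1.74), Rarb (23.8 ± 3.44), Rxra (17.0 ± 0.0541) and Rara (11.3 ± 1.11), with no overlap between neighbours. Aldh1a1 (0.914 ± 0.0963), Aldh1a3 (0.838 ± 0.253) and Crabp2 (0.639 ± 0.284) came next, and the ranges of these neighbours overlapped. Rarb led the order in WT31 although its CPM were below those of Rarg and Rxra, since TPM divide by transcript length, and the stretch shared with Top2b enters both units. Retsat moved from the middle of the order in WT31 to its top in WT31_P5IV, while Aldh1a1 came down to the level of Aldh1a3.

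Other genes of the pathway were taken from a list of 57 genes that does not hold the 9 above. A total of 33 were tested, 11 rose, 14 fell and 8 did not pass the test, so that 75.8% were called in comparison to 68.5% of all tested genes. In 22 of the 33 the CPM of the lines were separated without overlap, beside 54.1% of all tested genes. The median log2 fold change was -0.09 in comparison to 0.01 over all tested genes. In 7 genes the change was at least 1 on the log2 scale, with 3 higher and 4 lower, beside 9.19% of all tested genes past both thresholds.

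**Figure D4:**
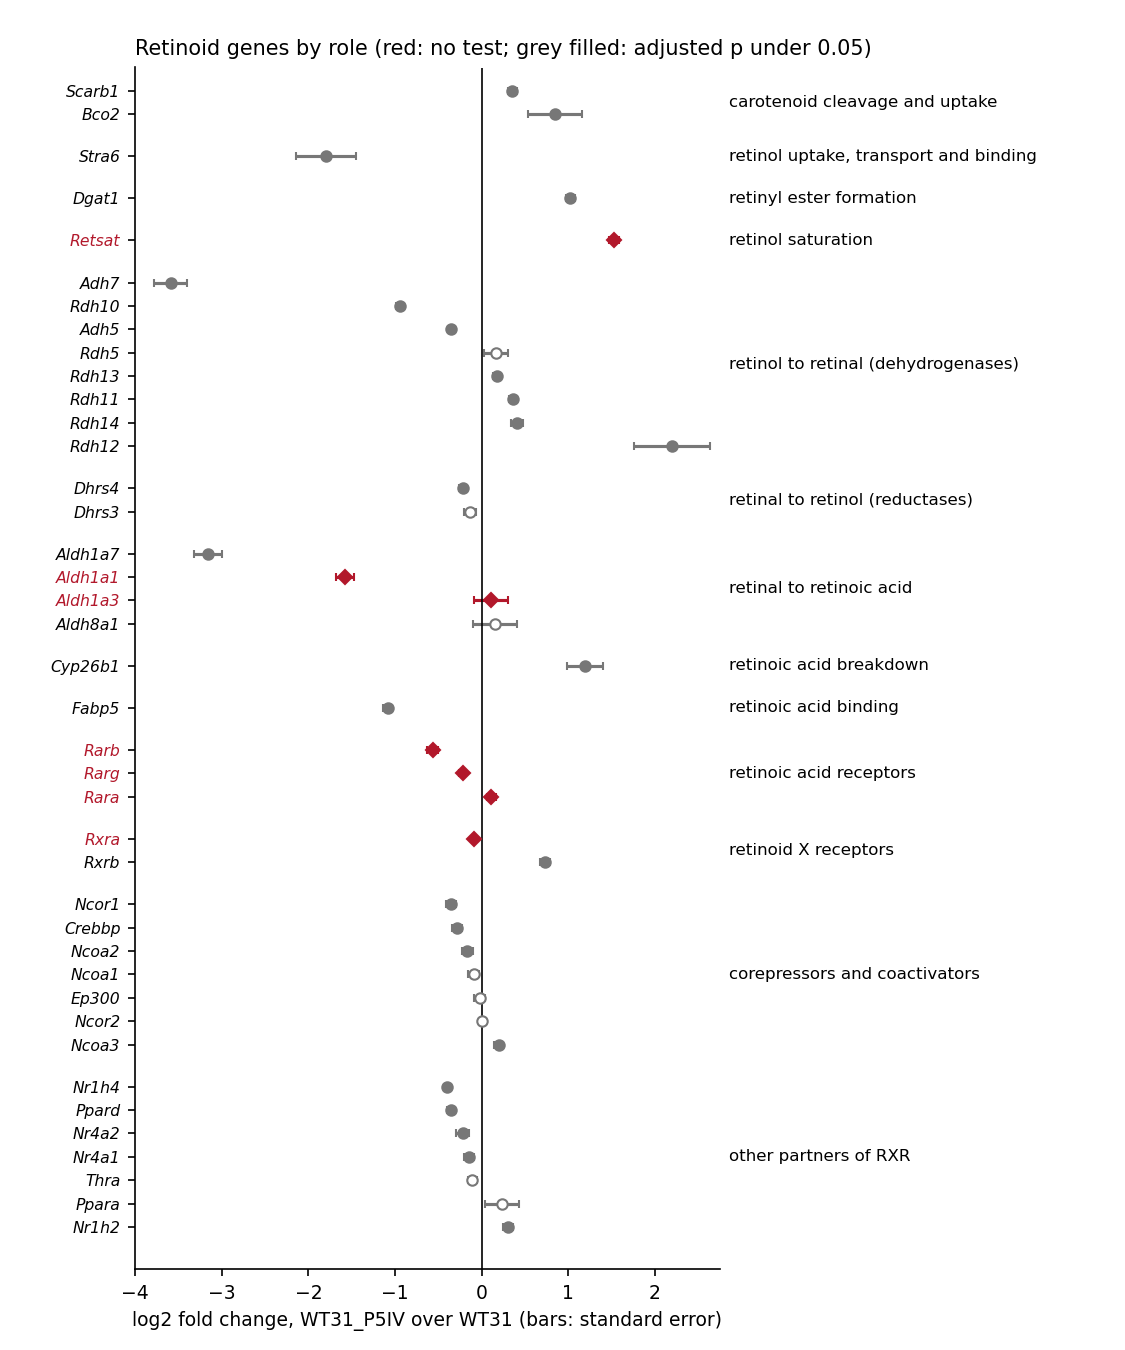
Log2 fold change of WT31_P5IV over WT31 for the tested retinoid genes, grouped by role in the pathway, with bars of 1 standard error from edgeR; red diamonds are the 7 of the 9 genes described one by one that had enough counts and are not marked by a test, and of the grey points the filled ones had an adjusted p under 0.05. Adh7 at -3.59 and Aldh1a7 at -3.16 lie farthest to the left, and Rdh12 at 2.20 and Retsat at 1.53 farthest to the right.

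Of 6 listed genes of retinol uptake, transport and binding, 1 was tested, as was 1 of 2 for retinyl ester formation. These moved in different directions. Stra6, the cell surface receptor for retinol carried in blood, ranged from 0.643 to 1.15 CPM over the WT31 libraries and from 0.0421 to 0.463 CPM in WT31_P5IV. It fell by 1.80 on the log2 scale (SE 0.34, edgeR adjusted p = 0.000297). Dgat1, which makes triglycerides and can also esterify retinol, was at 19.8, 17.7, 16.9, 20.0 and 20.0 CPM in WT31 and at 38.9, 38.9, 39.2, 36.7 and 38.1 CPM in WT31_P5IV. It rose by 1.02 (SE 0.05, edgeR adjusted p = 4.42e-10), and the lines were far apart. Lrat, the main enzyme of retinyl ester formation and a marker of stellate cells, had 1 to 8 counts in WT31 and 0 to 3 in WT31_P5IV. In the carotenoid group both tested genes rose (beside 34.6% of all tested genes), namely the scavenger receptor gene Scarb1 and the carotenoid-cleaving Bco2. Bco2 was low (0.114 to 0.392 CPM in WT31, 0.421 to 0.702 CPM in WT31_P5IV), with a log2 fold change of 0.85 (SE 0.31, edgeR adjusted p = 0.0243). It was not called in 6 of 19 alternative fits, among them those without replicate 2 (0.74) or 5 (0.72) of WT31_P5IV or without replicate 2 of WT31 (0.62).

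Of the 17 listed retinol dehydrogenases, 8 were tested, 4 rose and 3 fell (87.5% called, beside 68.5% of all tested genes). This step is reversible, and the direction in which each enzyme works in these cells was not tested. Rdh10, the main retinol dehydrogenase of the embryo, was at 49.1, 51.5, 52.9, 55.8 and 51.3 CPM in WT31 and at 26.2, 28.9, 26.7, 25.9 and 27.5 CPM in WT31_P5IV. It fell by 0.95 (SE 0.05, edgeR adjusted p = 1.79e-10), and each WT31 library was well above each WT31_P5IV library. Adh7, an alcohol dehydrogenase that accepts retinol, went from 3.21 ± 0.299 CPM to 0.266 ± 0.0923 CPM (SD, n = 5 each), a fall by 3.59 (SE 0.19, edgeR adjusted p = 6.30e-10). Rdh12, an enzyme known from photoreceptors, was close to the limit of detection in WT31, with 0 to 0.235 CPM, and at 0.421 to 0.590 CPM in WT31_P5IV (log2 fold change 2.20, SE 0.44, edgeR adjusted p = 0.000441). Rdh11, Rdh13 and Rdh14 rose as well. Of the 2 genes listed as reductases of retinal to retinol, Dhrs4 fell by 0.22 (SE 0.04, edgeR adjusted p = 0.000415). With an offset for transcript length its difference was not called. Dhrs3 overlapped between the lines (log2 fold change -0.13, SE 0.07, edgeR adjusted p = 0.0909), but was called as lower in 7 of 20 alternative fits, among them those without replicate 1 of WT31_P5IV (-0.17) or without replicate 2 (-0.17) or 3 (-0.17) of WT31.

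Breakdown of retinoic acid was represented by Cyp26b1, which hydroxylates it. Its level was 0.354 to 0.643 CPM in WT31 and 0.925 to 1.35 CPM in WT31_P5IV, without overlap. It rose by 1.19 (SE 0.21, edgeR adjusted p = 0.000124). Cyp26a1 had at most 5 counts and Cyp26c1 at most 2 counts in any library.

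Of 7 corepressors and coactivators, all tested, 1 rose and 3 fell (57.1% called, beside 68.5% of all tested genes). Ncor1, a corepressor that RARs bind without ligand, had the largest change of this group and fell by 0.35 (SE 0.06, edgeR adjusted p = 0.000100). Among 11 further nuclear receptors that are known to pair with RXR, 7 were tested, 1 rose and 4 fell (71.4% called). Of these 7, the bile acid receptor gene Nr1h4 had the largest change, from 50.7 ± 1.24 CPM to 38.5 ± 1.99 CPM (SD, n = 5 each), a fall by 0.40 (SE 0.04, edgeR adjusted p = 6.90e-07).

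Genes of the lists with over 3 counts in at least 1 library but too few for edgeR were compared by two-sided exact permutation tests of CPM, 12 in all and not adjusted for their number. Vdr, the vitamin D receptor, had 5 to 12 counts in WT31 and 0 to 2 in WT31_P5IV, at least 2.56-fold lower against a floor of 3 counts per library (exact p = 0.00794, the smallest that 5 against 5 allows). The alcohol dehydrogenase gene Adh1 had 3 to 6 and 0 to 2 counts and was at least 1.31-fold lower (exact p = 0.00794). Vdr and Adh1 were picked out after their values were seen. Lrat gave an exact permutation p of 0.119. A further 17 listed genes, among them Rbp4 and Aldh1a2, never exceeded 3 counts.

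Known target genes of retinoic acid did not move in a common direction. Of 15 listed genes other than Rarb and Crabp2, 7 were tested, 2 rose and 3 fell, and 4 had groups without overlap, beside 54.1% of all tested genes. The share called was 71.4%, in comparison to 68.5% of all genes, and the median log2 fold change was -0.13. Cyp26b1 (above) was among those that rose. Stra6 (above), the tissue transglutaminase gene Tgm2 and Asb2 fell. Tgm2 ranged from 0.666 to 0.833 CPM over the WT31 libraries and from 0.211 to 0.402 CPM in WT31_P5IV (log2 fold change -1.16, SE 0.22, edgeR adjusted p = 0.000281). Of the 31-base words of Tgm2, 20.0% also occur on the opposite strand in transcripts of other genes, most often Gm20412. With the strand setting unknown the value of Tgm2 is uncertain. Asb2 fell by 0.65 (SE 0.08, edgeR adjusted p = 5.51e-06). Dhrs3 and the corepressor Nrip1 did not pass the test. Rarb, a target as well as a receptor, was lower in WT31_P5IV as described above, and the listed targets Cyp26a1 and Lrat were too low for edgeR.

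RAR and RXR bind pairs of a hexamer motif in direct repeat, typically with 5, 2 or 1 bases in between. Promoter windows from RefSeq (GRCm38.p6, 250 bases before to 50 bases after each start site) were searched on both strands for 2 copies of AGGTCA or its variants GGGTCA or AGTTCA or GGTTCA in the same direction. The table held 13 windows for 7 of the 9 genes, with none for Aldh1a3 and Crabp2. With 5 bases between the copies, 32 of all 32851 windows matched (0.0974%). Among the 9 genes and those of the pathway and target lists, the match was found in Rarb and Cyp26a1. In Rarb it lay 53 to 37 bases before the start site, inside the annotated gene, and in Cyp26a1 32 to 16 bases before it. With 2 bases between, 0.268% of windows matched, none of them of a listed gene, and with 1 base 0.222%, of the listed genes Bco1 alone. A single copy occurred in 43.7% of all windows, and the Retsat window shown above holds 1 copy but no repeat. The sequences before the start sites of Rarb (minus strand, chr14:16575477-16575726) and Cyp26a1 (plus strand, chr19:37697558-37697807) are given 5′ to 3′, with the repeated motif in capitals; in Cyp26a1 it reads on the other strand.
Rarb: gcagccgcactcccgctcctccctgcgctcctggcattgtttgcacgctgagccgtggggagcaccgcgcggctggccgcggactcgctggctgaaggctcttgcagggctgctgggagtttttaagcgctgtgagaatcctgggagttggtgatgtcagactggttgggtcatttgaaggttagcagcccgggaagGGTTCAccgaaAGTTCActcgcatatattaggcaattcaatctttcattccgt
Cyp26a1: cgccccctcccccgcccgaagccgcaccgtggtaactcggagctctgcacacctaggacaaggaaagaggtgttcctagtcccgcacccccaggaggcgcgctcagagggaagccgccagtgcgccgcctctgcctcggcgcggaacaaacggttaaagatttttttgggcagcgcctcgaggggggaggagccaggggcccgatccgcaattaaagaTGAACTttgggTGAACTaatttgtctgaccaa
A match of these letters is a description of the window and does not show that a receptor binds there.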

How the data were processed

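RNA-seq of 5 WT31 and 5 WT31_P5IV libraries was analysed. The authors trimmed the reads with trim_galore (0.6.4 per the submitters' processing notes) and quantified transcripts of GRCm38.p6 with kallisto; the deposited estimated counts and the deposited TPM are both summed per gene. The annotation release and the strand setting are not given in the sources used here, and the labels and design text name different sequencing instruments. Replicates carry the numbers of the sample titles, which for WT31 differ in part from those in the file labels. Symbols and positions came from GENCODE M21, which held 55144 of the 55385 identifiers. The 9 genes, the pathway, target and marker lists and the genes to be named were chosen with earlier results of these data known. Named genes are the 9, further core pathway genes, list genes called with an absolute log2 fold change of at least 1, the called gene with the largest change in each role, and the 3 genes most like Retsat. Values of some single genes under this rule are not reported here.

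Estimated counts were rounded to whole numbers, filtered by filterByExpr (13620 of 31234 genes with at least 1 count), scaled by TMM and compared with the quasi-likelihood test of edgeR 4.0.16 (R 4.3.3), and p-values were adjusted by Benjamini-Hochberg for all genes in the test. CPM use TMM-scaled totals, and standard errors come from the log2 fold change without prior count and the F statistic. On simulated data with 200 of 13620 genes changed, the edgeR test found 90% of those changed by 1 and 100% of those changed by 2 on the log2 scale, with 11 false calls. Far fewer genes changed there than the 68.5% called here, and no change under 1 was simulated, so these shares may not hold here. Shared sequence was counted in words of 31 bases of GENCODE transcripts. Alternatives were DESeq2 1.42.0, limma 3.58.1 voom without TMM and with it, scaling by the upper quartile, other count filters, a replicate block, a transcript length offset, limma on log2(TPM + 0.1) and log2(TPM + 1), and leaving out each library. Scripts ran under Python 3.11.15.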

Additional observations from a re-analysis of the deposited data

Results flagged for a closer look

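In Aldh1a7, a WT31 library stood apart from the other 4 by Dixon's criterion, which chance meets in about 1 in 20 groups. Aldh1a7 was at 5.11 CPM in replicate 2 of WT31 and at 5.93 to 6.19 CPM in the others, all far above the WT31_P5IV libraries.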

How the results depend on the processing

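Over 20 alternatives, the log2 fold changes of Retsat (1.14 to 1.56), Rarb (-0.75 to -0.54) and Aldh1a1 (-1.69 to -1.12) kept their sign. Rara reversed on the TPM scale (-0.0848 with log2(TPM + 0.1), -0.0785 with log2(TPM + 1)). Aldh1a3 reversed with log2(TPM + 0.1) (-0.00437) and without replicate 3 of WT31_P5IV (-0.00631); without each library in turn it ranged from -0.00631 to 0.22. Among the other named genes in the edgeR fit, calls were lost for Bco2 (6 alternatives) and Dhrs4 (1) and gained for Dhrs3 (7), and the cause was not tested. Calls of unnamed list genes changed as well. The pathway genes called lower were 14, but 12 with upper-quartile scaling and 19 with every gene of at least 1 count. Of the 9 genes, the call was lost for Rxra with upper-quartile scaling and without replicate 5 of WT31_P5IV, and for Rarg with the length offset, which like their calls is not read as a result. With every gene of at least 1 count, 6 of the 9 were called in place of 5. There, 3 in place of 2 passed the fold threshold, which is not read as a result either. On the TPM scale Rxra moved to -0.27 (pseudocount 0.1) and -0.26 (pseudocount 1), and with log2(TPM + 1) low genes had smaller changes, as Stra6 (-0.42), Rdh12 (0.32), Cyp26b1 (0.21), Tgm2 (-0.22) and Adh7 (-1.36). With at least 10 counts in every library, 2 target genes were called in place of 5, since fewer were tested. The count of all genes called past the fold threshold was 1252, but 465 with log2(TPM + 1), 701 with at least 10 counts and 2332 with every gene of at least 1 count. Of all calls, 50.5% were higher; this was 32.9% with log2(TPM + 0.1), 32.8% with log2(TPM + 1) and 42.6% for voom without TMM, where the median of all genes was -0.06. By the numbers of the sample titles, same-numbered libraries of the lines did not deviate together (correlations from -0.10 to 0.18), so the numbers were not read as pairs; with the replicate block 9380 genes were called in place of 9327. Low counts limit Crabp1, Crabp2, Stra6, Rdh12 and Cyp26b1.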
